A study of Mus musculus with 4 samples.

Results

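The erasers and core writers of N6-methyladenosine (m6A), the methyl mark found inside many messenger RNAs, were followed in ribosome footprints of mouse lung epithelial cells exposed to 1-nitropyrene. The set held 6 genes, chosen by Ensembl ID from the 53465 gene IDs of the count table: the demethylases Alkbh5 and Fto, and the methyltransferase subunits Mettl3, Mettl14, Wtap and Virma. The names were paired with the IDs when the set was drawn up, since the table lists IDs without symbols. MLE-12 is a line of mouse distal lung epithelium, immortalised by SV40 large T antigen under a surfactant protein C promoter, and stands here for alveolar type 2 cells. The control group was MLE-12 cells with no compound (replicates 1 and 2). The exposed group was MLE-12 cells given 5 µM 1-nitropyrene (replicates 2 and 3), a nitroarene that forms when diesel fuel burns. The exposure lasted 12 h, and cells of both groups were washed in cold buffer with 100 µg/mL cycloheximide, which stalls ribosomes on the message, before lysis. All 4 libraries come from this single line, and no label says whether the samples of a group were separate cultures. The spread within a group may therefore be technical, and the edgeR p-values measure such spread only. That spread was taken from a trend over all tested genes, not from each gene's own values.

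The mark is placed by a nuclear complex in which METTL3 carries the catalytic activity and METTL14, a related protein with no catalysis of its own, holds the RNA. WTAP brings this pair to nuclear speckles, and VIRMA is the large scaffold that directs the complex to sites late in the transcript. ALKBH5 and FTO, iron-dependent oxygenases of the AlkB family, take the methyl group off again, and FTO also acts on a related mark next to the cap. The series is about ALKBH5, its modification by SUMO and the m6A mark on Fbxw7 messenger RNA. A footprint count reflects how much of a message is present and how densely ribosomes sit on it. It shows neither SUMO on a protein nor methyl groups on RNA, and RNA libraries that would separate message amount from ribosome density were not analysed here.

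The 4 libraries held between 1136145 and 1357034 counts. Levels are given as counts scaled to a common library size (CPM) after TMM scaling, on which 1 count was worth 0.761 to 0.860 CPM. Of all gene IDs, 7719 had enough counts to be tested, the 6 members among them. Between 1-nitropyrene and control, 17.3% of the tested genes passed edgeR's quasi-likelihood test at an adjusted p under 0.05, 9.68% of them being higher and 7.58% lower with 1-nitropyrene as shares of all tested. The lung epithelial identity of the libraries was not checked, because the IDs of the marker genes were not tied to symbols.

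Fto and Mettl14 rose with 1-nitropyrene, and the other members did not pass the test. Fto, an eraser, rose 2.01-fold and Mettl14, the RNA-holding partner of the writer pair, rose 1.30-fold. Alkbh5, the demethylase the study is about, had nearly equal levels in both groups, 28.8 ± 0.980 CPM in control and 28.1 ± 2.81 CPM with 1-nitropyrene (SD, n = 2 each). The called members were thus 2 of 6, both of them higher, beside 17.3% of all tested genes in either direction. Neither call held throughout: edgeR called 0 to 1 members when 1 library was left out (572 to 834 genes in all, against 1332), and the DESeq2 Wald test on the same genes called 0 members and 345 genes. In those DESeq2 values, 2 members had an unadjusted p under 0.05. The limma-voom test on all 4 libraries called 2 members, Fto and Mettl14. The median log2 fold change was 0.19 over the 6 members and -0.0076 over all tested genes, and the median absolute log2 fold change was 0.41 and 0.34. Control and exposed libraries were fully separate for 4 of the 6 members, against 57.3% of all tested genes, so that such separation was common across the table. A two-sided exact permutation test over the libraries cannot reach a p below 0.333 for a gene when each group has 2, so each test below borrows its spread from the fit over all genes.

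**Figure D1:**
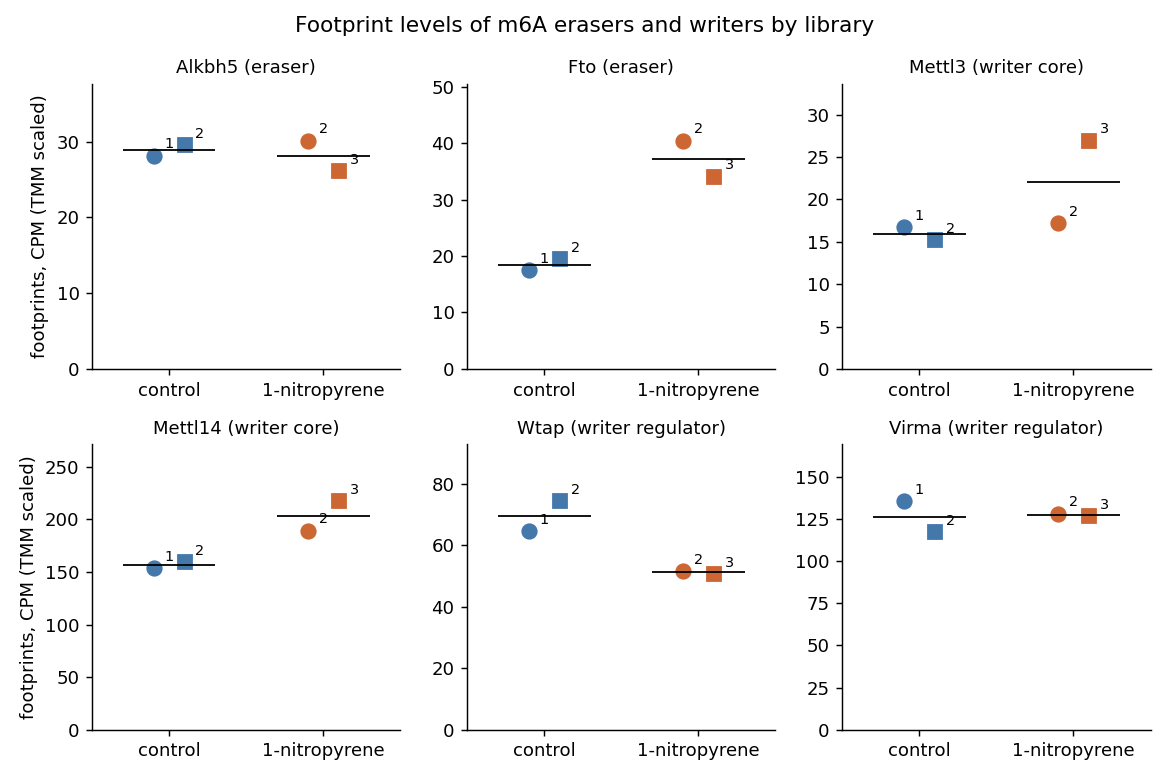
Footprint levels of the 6 genes in CPM after TMM scaling, with 1 point per library labelled by its replicate number and a line at each group mean; each panel has its own axis from 0. Both 1-nitropyrene libraries lie above both controls for Fto, Mettl3 and Mettl14, both lie below for Wtap, and the groups overlap for Alkbh5 and Virma.

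Alkbh5 (ENSMUSG00000042650, chromosome 11, 60537683 to 60558512 in GRCm38.p6) removes m6A from nuclear messenger RNA. It was counted 37 and 35 times in control cells and 35 and 33 times in exposed cells, or 28.1, 29.5, 30.1 and 26.1 CPM. The exposed libraries lay on either side of both controls. The edgeR log2 fold change was -0.037 ± 0.31 SE with an adjusted p of 0.959, and its 95% interval ran from 0.641 to 1.48 times the control level. The sign turned to 0.0026 without control replicate 2 and to 0.067 without 1-nitropyrene replicate 3. A change within the interval was not detectable at this depth. At the standard error of this gene, a fold change of about 1.75 would have been needed for a call.

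Fto (ENSMUSG00000055932, chromosome 8, 91313367 to 91668433) is the other m6A demethylase. It was counted 23 times in each control library and 47 and 43 times after 1-nitropyrene. Its level was 17.5 and 19.4 CPM in control and 40.4 and 34.1 CPM with 1-nitropyrene, so that the lower exposed library stood well above the higher control. The group means were 18.4 ± 1.35 and 37.3 ± 4.51 CPM (SD, n = 2 each). The log2 fold change was 1.01 ± 0.32 SE (edgeR adjusted p = 0.0142), with a 95% interval of 1.30 to 3.11-fold. Only 3.43% of tested genes had a larger log2 fold change.

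The call for Fto rested on all libraries but 1-nitropyrene replicate 3, and on the choice of test. Without control replicate 1 the log2 fold change was 0.93 (edgeR adjusted p = 0.109), without control replicate 2 it was 1.09 (edgeR adjusted p = 0.0516), and without 1-nitropyrene replicate 2 it was 0.90 (edgeR adjusted p = 0.135). Without 1-nitropyrene replicate 3 it was 1.13 and was still called (edgeR adjusted p = 0.0243). The DESeq2 Wald test on the same genes gave nearly the same size, 1.02, but no call (adjusted p = 0.247). The limma-voom test gave 0.99 and a call (limma-voom adjusted p = 0.0189). With libraries scaled to their total counts the log2 fold change of Fto was 0.85 and still called (edgeR adjusted p = 0.0431). The annotated span of Fto also holds the long noncoding RNA gene 4831440D22Rik, and how reads of overlapping genes were assigned is not given in the sources used here.

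The balance between the erasers is given here as a description. Alkbh5 counts were 1.61 and 1.52 times the Fto counts in control cells, and 0.745 and 0.767 times in exposed cells. Fto made up 38.3% and 39.7% of the eraser counts in control and 57.3% and 56.6% with 1-nitropyrene. These ratios need no scaling between libraries and did not overlap between groups. Alkbh5 counts were nearly level, so the ratios mostly restate the Fto counts. The pair was chosen with earlier results known, and how often such ratios separate the groups for other genes was not counted. The ratios say nothing of which eraser is more abundant, since counts were not divided by coding length. The summed level of both erasers was 47.3 ± 2.33 CPM in control and 65.4 ± 7.33 CPM with 1-nitropyrene (SD, n = 2 each), with separate groups, and the difference lay in Fto.

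**Figure D2:**
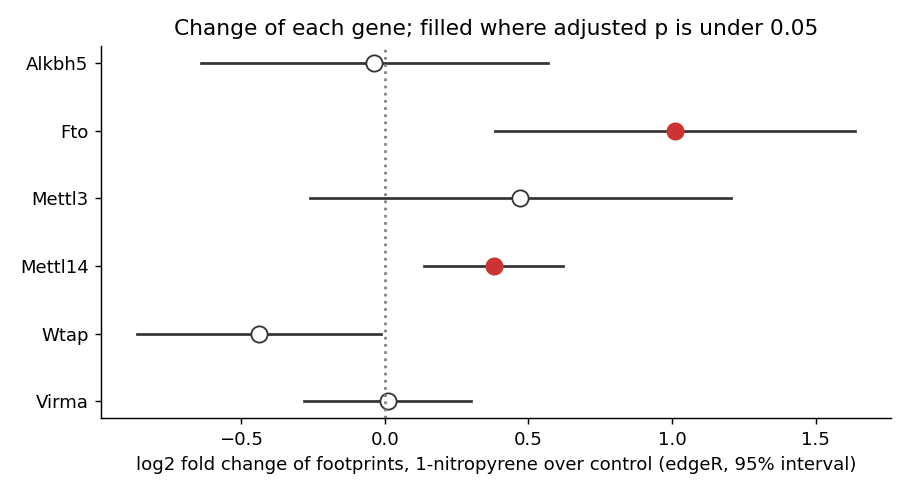
Log2 fold change of footprints, 1-nitropyrene over control, for each gene, with the 95% interval of the edgeR fit; points are filled where the adjusted p is under 0.05. Fto at 1.01 and Mettl14 at 0.38 are filled, and the intervals of Alkbh5, Mettl3 and Virma cross 0.

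Mettl3 (ENSMUSG00000022160, chromosome 14, 52294841 to 52308741) is the catalytic subunit of the writer. It had the fewest counts of the set, 22 and 18 in control and 20 and 34 with 1-nitropyrene. The levels were 16.7 and 15.2 CPM in control and 17.2 and 26.9 CPM with 1-nitropyrene. The groups did not overlap, but 1-nitropyrene replicate 2 lay just above control replicate 1, and only replicate 3 was clearly higher. The log2 fold change of 0.47 ± 0.37 SE did not pass (edgeR adjusted p = 0.417). It was 0.11 without 1-nitropyrene replicate 3 and 0.76 without 1-nitropyrene replicate 2, with no call in either case. The 95% interval, 0.834 to 2.30 times control, includes both no change and the doubling measured for Fto. The annotated span of Mettl3 shares 669 bases with the neighbouring gene Tox4, so that some reads there could belong to either gene.

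Mettl14 (ENSMUSG00000028114, chromosome 3, 123368295 to 123385990) was the most deeply counted member, with 202 and 189 counts in control and 220 and 274 with 1-nitropyrene. Its level was 154 and 159 CPM in control and 189 and 217 CPM with 1-nitropyrene. Both exposed libraries were above both controls, and the exposed libraries lay further apart from each other than the controls did. The group means were 157 ± 4.11 and 203 ± 19.6 CPM (SD, n = 2 each), and the log2 fold change was 0.38 ± 0.12 SE (edgeR adjusted p = 0.0178). The 95% interval was 1.10 to 1.54-fold. This size was not unusual in the table, where 20.8% of tested genes had a larger log2 fold change. The tested genes were divided by mean count into 4 bins of equal size. In the top bin, to which Mettl14 and Virma belong, 36.4% of genes were called, against 13.8% in the bin of Wtap and 10.3% in the bin that holds Alkbh5, Fto and Mettl3.

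The Mettl14 call depended on scaling and on single libraries. With libraries scaled to their total counts the log2 fold change of Mettl14 was 0.21 (edgeR adjusted p = 0.218). This scaling also lowered the median over all tested genes, from -0.0076 to -0.17. Relative to the median gene, Mettl14 was at 0.39 with either scaling. With the size factors of DESeq2 as the scaling, the log2 fold change was 0.38 and called (edgeR adjusted p = 0.0164). Without control replicate 1 the log2 fold change was 0.35 (edgeR adjusted p = 0.155), without control replicate 2 0.41 (edgeR adjusted p = 0.0747), and without 1-nitropyrene replicate 3 0.28 (edgeR adjusted p = 0.277). It was 0.49 and called without 1-nitropyrene replicate 2 (edgeR adjusted p = 0.0444). The DESeq2 Wald test gave 0.39 and no call (adjusted p = 0.228), where it called 11.2% of the genes to which it gave an adjusted p. The limma-voom test gave 0.38 and a call (limma-voom adjusted p = 0.0232).

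The proportion of the catalytic pair overlapped between the groups. Mettl3 counts were 0.109 and 0.0952 of the Mettl14 counts in control and 0.0909 and 0.124 with 1-nitropyrene, so that the exposed libraries enclosed both controls. Since Mettl3 rested on 18 to 34 counts, a change of this ratio well beyond that range could be missed.

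Wtap (ENSMUSG00000060475, chromosome 17, 12966799 to 12992543), the subunit that brings the catalytic pair to speckles, was the only member whose level was lower in both exposed libraries than in both controls. It had 85 and 88 counts in control and 60 and 64 with 1-nitropyrene. The levels were 64.6 and 74.2 CPM in control and 51.6 and 50.7 CPM with 1-nitropyrene. The exposed libraries were close together and separate from the controls, with means of 69.4 ± 6.78 and 51.2 ± 0.662 CPM (SD, n = 2 each). The log2 fold change was -0.44 ± 0.22 SE, with an unadjusted p of 0.0439 and an adjusted p of 0.153 (edgeR), and so did not pass over all tested genes. With total counts it was -0.60 and passed (edgeR adjusted p = 0.0334), but that scaling lowered all genes nearly alike, and relative to the median gene Wtap was at -0.43 with either scaling. No call was made by the DESeq2 Wald test (adjusted p = 0.483) or by edgeR with 1 library left out (adjusted p from 0.208 to 0.521). The interval with TMM ran from 0.550 to 0.992 times the control level.

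Set beside Mettl14, Wtap was lower in exposed cells, a ratio that falls in part because Mettl14 was higher. Its counts were 0.421 and 0.466 of the Mettl14 counts in control and 0.273 and 0.234 with 1-nitropyrene. This ratio was chosen after the values were seen and has no test. Wtap made up 17.5% and 20.3% of the counts of the 4 writer genes in control, and 13.4% and 12.0% with 1-nitropyrene. The groups were separate in both measures, which do not depend on scaling between libraries. Both measures reuse the counts given above, Mettl14 among them, and add no separate evidence that Wtap fell. How often such measures separate the groups for other genes was not counted.

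Virma (ENSMUSG00000040720, chromosome 4, 11485958 to 11551143), the scaffold of the writer complex, had 178 and 139 counts in control and 149 and 160 with 1-nitropyrene. Its level was 135 and 117 CPM in control and 128 and 127 CPM with 1-nitropyrene, so that both exposed libraries fell between the controls. The log2 fold change was 0.0095 ± 0.15 SE (edgeR adjusted p = 0.981), and the 95% interval was 0.824 to 1.23 times control. Its sign turned without control replicate 2, to -0.081, with no call. It was -0.16 with total counts, a scaling that lowered all genes nearly alike, and relative to the median gene it was 0.017 with either scaling. Over the 4 writer genes the summed level after TMM scaling was 368 ± 3.01 CPM in control and 404 ± 24.8 CPM with 1-nitropyrene (SD, n = 2 each). On this scaling the higher Mettl14 level outweighed the lower Wtap level. With total counts the log2 fold changes were 0.31 for Mettl3, 0.21 for Mettl14, -0.60 for Wtap and -0.16 for Virma. The writer sum with total counts was not calculated, so whether it would be higher on that scaling is not shown.

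**Figure D3:**
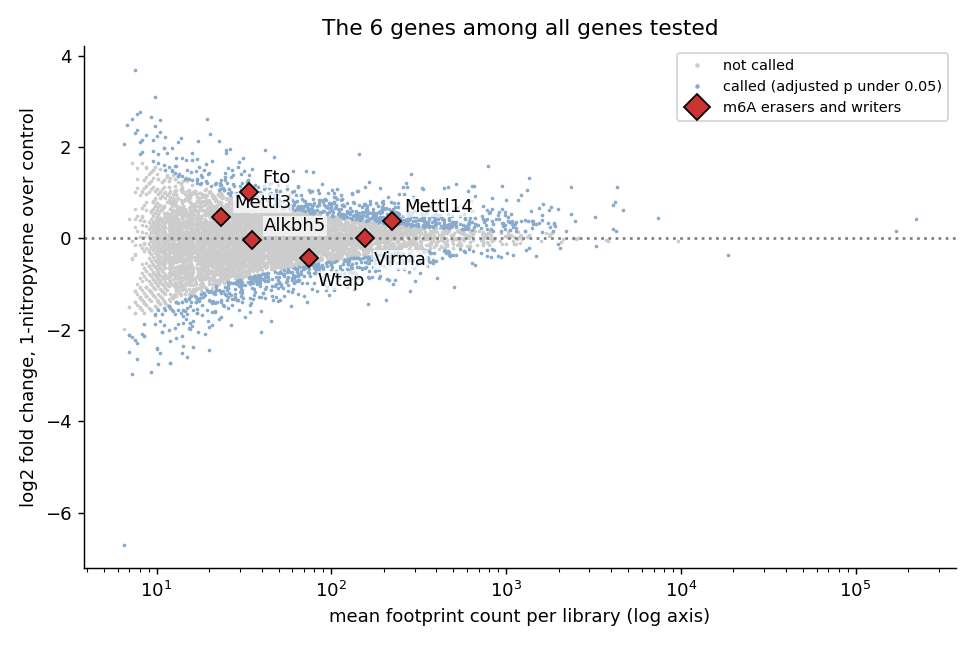
Mean footprint count per library (log axis) against log2 fold change, 1-nitropyrene over control, for the 7719 tested genes, with called genes in blue and the 6 genes as red diamonds. Fto lies at 1.01 among called genes, Mettl14 lies where many genes were called, and Alkbh5 and Virma lie near 0.

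Depth set much of the precision for these genes. Counting error alone would give a standard error of 0.24 for the log2 fold change of Alkbh5, 0.26 for Fto, 0.30 for Mettl3 and 0.098 for Mettl14. It made up between 61.0% and 67.1% of the variance of the fitted fold changes over the 6 members. At their standard errors, the smallest change that would have been called was about 1.25-fold for Mettl14, 1.31-fold for Virma, 1.48-fold for Wtap, 1.79-fold for Fto and 1.98-fold for Mettl3. Whether any member changed by a different amount than another was not tested.

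The pattern of Alkbh5 over the 4 libraries was compared with that of 3239 other tested genes whose mean count was 50 or more, by the Euclidean distance between log2 CPM values centred on each gene's mean. The nearest were ENSMUSG00000003731, at a distance of 0.0227, with 295, 279, 278 and 268 counts in control replicates 1 and 2 and 1-nitropyrene replicates 2 and 3, and ENSMUSG00000020458, at 0.0245, with 350, 327, 323 and 310 counts. Neither passed the edgeR test between the groups (adjusted p of 0.908 and 0.783), an outcome that their choice by likeness to Alkbh5 all but fixed. Their names are not paired with the IDs in the tables used here, and a likeness over 4 libraries to a gene with some 35 counts in each is a description only.

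**Figure D4:**
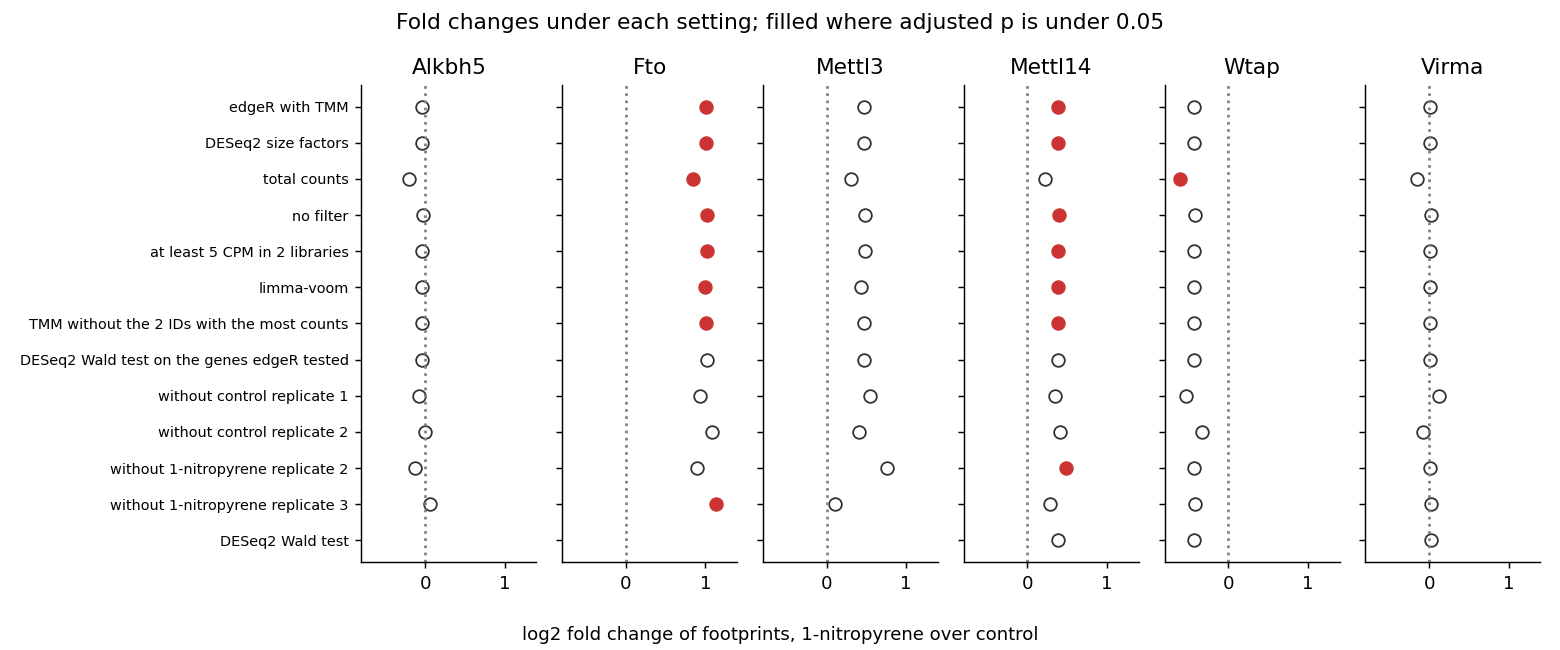
Log2 fold change of footprints, 1-nitropyrene over control, under each setting, with 1 panel per gene and points filled where the adjusted p is under 0.05; settings with no adjusted p for a gene have no point. Fto and Mettl14 are above 0 and Wtap is below 0 in every setting drawn, while Alkbh5 and Virma lie on either side of 0.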

How the data were processed

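The authors deposited 1 table of raw footprint counts per Ensembl gene ID, with 1 column for each of the 4 libraries and 0 columns of other samples. Per the submitters' processing notes the build was mm10 and the tools included HISAT2, Bowtie, cutadapt, featureCounts and DESeq2. The versions, the annotation and the strand setting were not given in the sources used here. Genes were filtered with filterByExpr (minimum count 10, minimum total 15), scaled with TMM and tested with edgeR 4.0.16 in R 4.3.3 (quasi-likelihood F test, no covariates, Benjamini-Hochberg over all genes tested, threshold 0.05). In the fit of all 4 libraries the prior degrees of freedom were infinite, so each gene there took its spread from the trend. Those of the fits with 1 library left out were not listed and may differ. Standard errors were derived from fold change and F. The procedure was tested on data simulated with the fitted trend as the spread of every gene. Such a test could not show whether real genes vary more than the trend. Alternatives used DESeq2 1.42.0 and limma 3.58.1.

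The members, lists and tests were chosen with earlier results of these data known. All 6 members are named, and the 2 genes nearest to Alkbh5 were picked by a stated distance (pseudocount 0.5 CPM). Gene spans come from RefSeq's GRCm38.p6 table, which gave an Ensembl ID for 0 genes, so 79 symbols in 9 lists (other m6A genes, methyl donor synthesis, cell type markers) and coding lengths were not used here. Intervals cover the fitted spread at the 95% level.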

Additional observations from a re-analysis of the deposited data

How the results depend on the processing

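Of the 6 members, Fto, Mettl3, Mettl14 and Wtap kept their direction under every alternative that gave an adjusted p, 11 each for Fto and Mettl3 and 12 each for Mettl14 and Wtap. These are the 4 members with fully separate libraries, as were 57.3% of all tested genes. Leaving out 1 library could therefore hardly turn their sign, and the other alternatives reuse the same counts. With total counts the log2 fold change was 0.21 for Mettl14, no longer called, -0.60 for Wtap, now called, and -0.16 for Virma, reversed. This scaling moved the median of all genes from -0.0076 to -0.17. Relative to that median, Mettl14, Wtap and Virma were at 0.39, -0.43 and 0.017 with either scaling. The limma-voom test called Fto and Mettl14, and 1249 genes in all. The DESeq2 Wald test gave an adjusted p to 3 members and called 0 of them (1 of 6 at an unadjusted p under 0.05) and 315 genes in all, with 0.39 for Mettl14. On the genes edgeR tested, an alternative added after seeing the data, it called 0 of 6 members (2 at an unadjusted p under 0.05) and 345 genes, with 1.02 for Fto and 0.38 for Mettl14; the cause was not tested. Fits with 1 library removed, in which the remaining sample of that group is taken to vary as the other group does, gave 572 to 834 called genes against 1332, and 0 to 1 called members by edgeR (2 to 3 at an unadjusted p under 0.05 in the fits with 0 called). The log2 fold changes then ran from -0.12 to 0.067 for Alkbh5, 0.90 to 1.13 for Fto, 0.28 to 0.49 for Mettl14 and -0.081 to 0.12 for Virma. No paired analysis was possible because only the number 2 occurs among the replicates of both groups. Footprint density per coding length and the related gene lists were not run.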
